A study of Mus musculus with 11 samples.

Results

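The 10 smooth muscle and pericyte genes described here encode parts of the contractile vessel wall and of the cells that surround small vessels. They were chosen by name and read in whole hearts, where they are 10 of the 55487 gene identifiers counted. *Myh11*, *Cnn1*, *Acta2*, *Tagln*, *Mylk*, *Smtn* and *Lmod1* encode contractile proteins, *Myocd* encodes a transcriptional coactivator, and *Rgs5* and *Pdgfrb* are used as pericyte genes.

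Hearts were taken at E14.5 from untreated embryos of both sexes of the strain B6; 129P2-Pde2A<tm1Dgen>, 5 of them *Pde2A*-/- and 6 *Pde2A*+/+. The embryos came from crosses of heterozygous parents and the knockout is constitutive, not limited to vessels or to the heart, and no litter or batch is named for single hearts. Poly(A) RNA of every heart was sequenced separately with strand kept, and the sense counts of genes summed to 35865537 in the shallowest and 42835382 in the deepest library. Total counts had medians of 37653522 in *Pde2A*-/- and 37934543 in *Pde2A*+/+ hearts, with p = 0.87 by a two-sided exact permutation test.

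Vascular smooth muscle cells contract when myosin pulls on actin filaments, and myosin light chain kinase starts this by phosphorylating the myosin light chain in response to calcium and calmodulin. Serum response factor turns on most genes of this apparatus by binding CArG boxes together with myocardin. Pericytes wrap capillaries and depend on platelet-derived growth factor from the endothelium. In the embryo, *Acta2*, *Tagln*, *Cnn1* and *Myocd* are also expressed by cardiomyocytes, so in a whole heart they do not mark vessels alone. In a whole heart, fewer cells of a type and less RNA per cell cannot be told apart.

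The targeted gene was read first. *Pde2a* had at most 2 counts in any library, and 7 over the 11 hearts, under the minimum of 10 counts over the 11 hearts that a gene needed for the comparison, so these counts could not check the genotype labels. Of its exon bases, 64.3% also belong to *Gm45837*, annotated on the same strand with 4 counts over the 11 hearts, and STAR counts a read lying on both genes for neither. The near absence of counts, in *Pde2A*+/+ hearts too, may therefore not reflect expression of the gene, and how many reads were lost in this way was not tested. Its exon bases that are not shared with *Gm45837* gave no more than these 7 counts. Whether reads of the gene were left out, or its counts changed, before the counts were deposited was not tested either.

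Some libraries held transcripts of other tissues. *Pde2A*+/+ replicate 7 had a summed level of 127 CPM (counts relative to library size, scaled by edgeR's TMM factors) over the 8 thymus genes, against 5.37 to 7.15 in *Pde2A*-/- and 5.82 to 7.92 in the other *Pde2A*+/+ hearts, and it held 417 counts of *Foxn1* and 1249 of *Rag1*. Of the 8 genes of lung and airway epithelium 4 had enough counts, and over these *Pde2A*+/+ replicate 11 had 54.7 CPM and replicate 7 had 40.7 CPM, while no *Pde2A*-/- heart was above 4.50 CPM. In replicate 7 this sum was nearly all *Epcam* and *Cdh1*, genes of epithelia in general, at 15.4 and 25.0 CPM, with *Nkx2-1* at 0, whereas replicate 11 also had 5.22 CPM of *Nkx2-1* and 11.1 CPM of *Sox2*. The surfactant gene *Sftpd* was at 0 in every heart, and *Sftpc*, *Sftpb* and *Cldn18* had under 10 counts in all. Over the 8 liver genes, *Pde2A*+/+ replicates E, 11 and H had 112.5, 43.0 and 35.9 CPM and *Pde2A*-/- replicate D had 37.0 CPM, against 1.68 to 4.77 CPM in the other hearts. The most abundant gene was *Ccl25* in the thymus, *Cdh1* in the lung and *Afp* in the liver list. Of the skeletal muscle genes, *Myh3*, an embryonic myosin heavy chain, was at 71.0 and 86.7 CPM in *Pde2A*-/- replicates B and D, against 0.391 to 2.31 CPM in the other *Pde2A*-/- and 0.877 to 16.7 CPM in *Pde2A*+/+ hearts. *Myh8*, the perinatal chain, was at 40.0 and 31.8 CPM in the same hearts, against 1.80 to 4.18 and 2.46 to 8.60 CPM. Results are therefore also given without *Pde2A*+/+ replicates 7 and 11, without *Pde2A*-/- replicates B and D, and without the 5 hearts with thymus, epithelial or liver genes (*Pde2A*+/+ replicates 7, 11, H and E and *Pde2A*-/- replicate D), which leaves 4 *Pde2A*-/- and 2 *Pde2A*+/+ hearts. Leaving out *Pde2A*-/- replicate B as well makes 6 hearts left out, with 3 *Pde2A*-/- and 2 *Pde2A*+/+ hearts in the fit. The part of these tissues in the differences below was not tested.

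**Figure D1:**
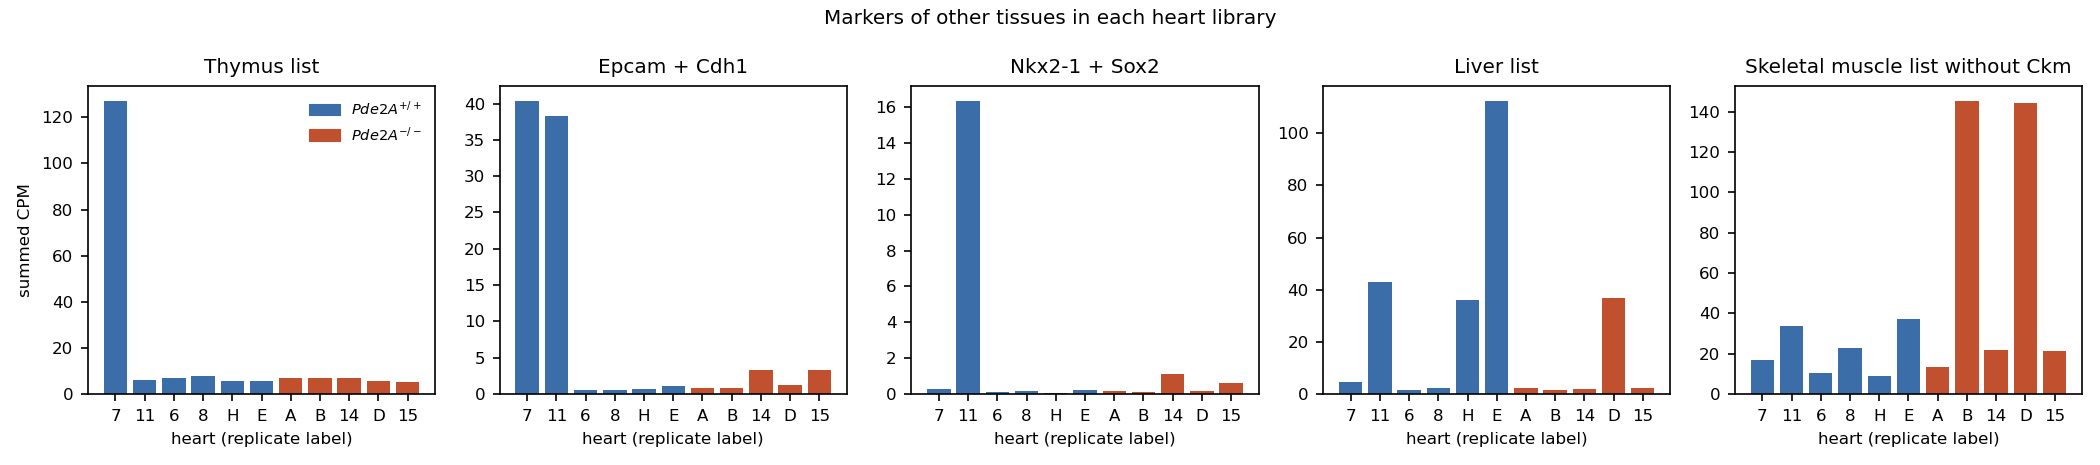
Summed CPM of marker genes (vertical axes, each with its own scale) in each heart (horizontal axis, replicate label), blue for *Pde2A*+/+ and red for *Pde2A*-/-. The lung list is split into *Epcam* with *Cdh1* and *Nkx2-1* with *Sox2*. *Pde2A*+/+ replicate 7 stands out for thymus at 127 CPM, replicates 7 and 11 for *Epcam* and *Cdh1* at 40.4 and 38.3 CPM, replicate 11 for *Nkx2-1* and *Sox2* at 16.4 CPM, 4 hearts for liver, and *Pde2A*-/- replicates B and D for skeletal muscle genes other than *Ckm* at 145.5 and 144 CPM.

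All 10 genes passed the minimum on counts. At an adjusted p under 0.05 (edgeR, quasi-likelihood, with Benjamini-Hochberg adjustment over 24177 genes), 2 of the 10 genes, *Cnn1* and *Smtn*, were lower in *Pde2A*-/- hearts, 0 were higher and 8 were not past the test. Of all genes tested, 5.67% were lower and 8.93% were higher by the same rule. With a fold change of at least 2 as a second condition, 0 of the 10 genes passed in either direction, against 0.372% of all genes lower and 2.21% higher. At an unadjusted p under 0.05, 3 of the 10 genes were lower and 0 higher (14.9% and 15.6% of all genes), and DESeq2 also called 3 lower and 0 higher (13.8% and 16.4% of the 17013 genes to which it gave an adjusted p). The hearts of the genotypes did not overlap for 1 gene, *Smtn*, lower in *Pde2A*-/-, where 3.11% of all genes were lower and 5.38% higher without overlap. The median log2 fold change, *Pde2A*-/- against *Pde2A*+/+, was −0.14 over the 10 genes and −0.02 over all genes tested, and 3 of the 10 had a positive sign.

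**Figure D2:**
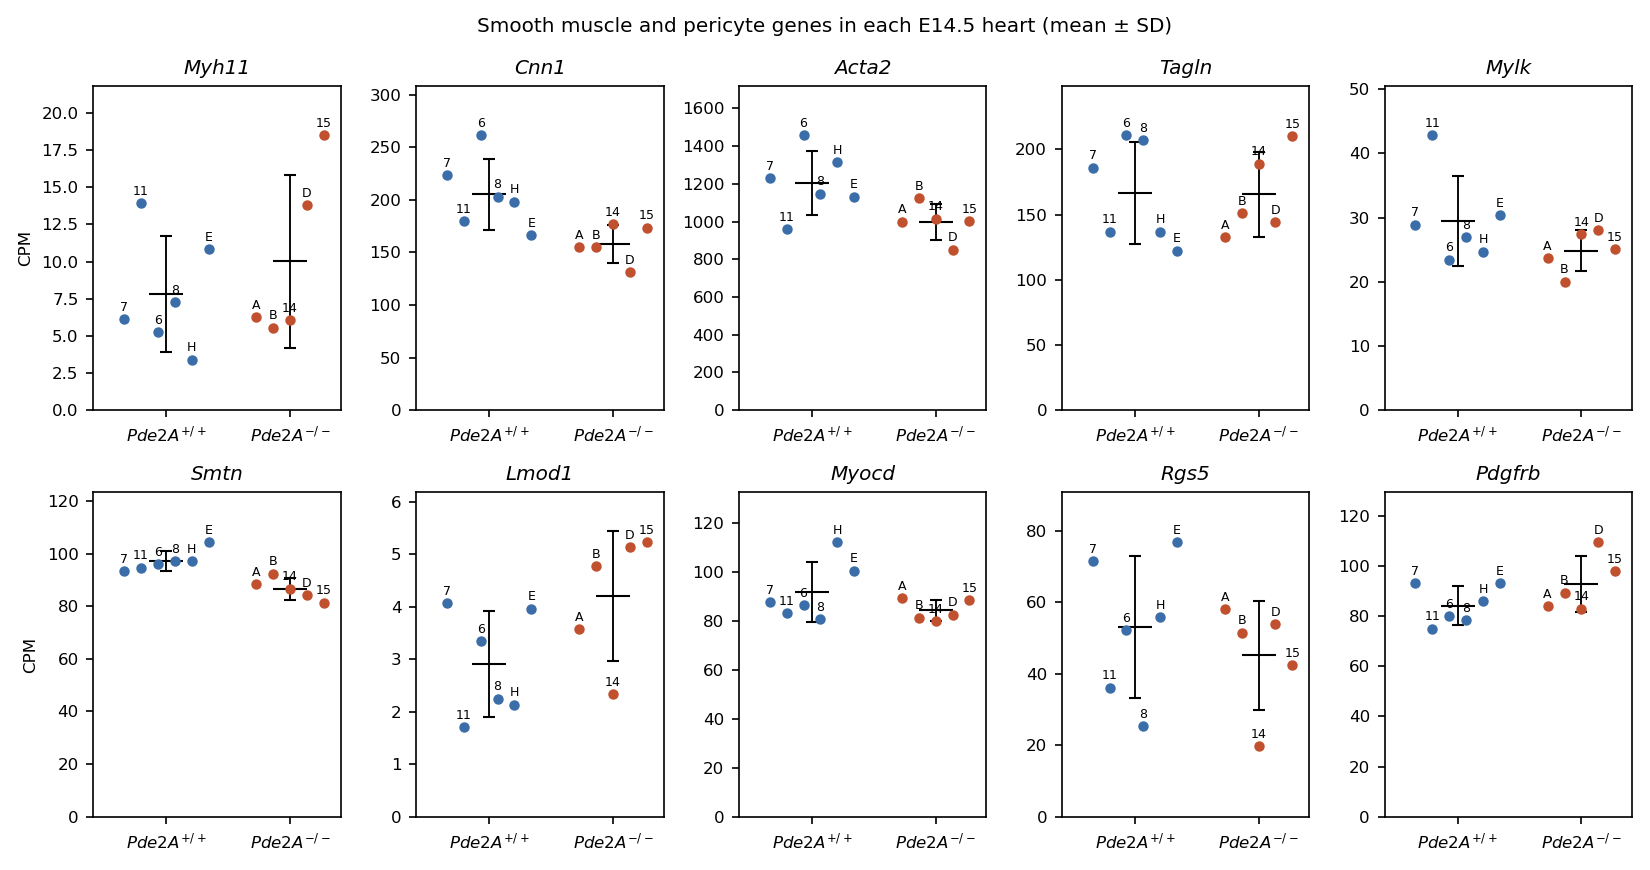
CPM of each of the 10 genes (vertical axes, from 0) in the 6 *Pde2A*+/+ (blue) and 5 *Pde2A*-/- hearts (red). Each point is 1 heart with its replicate label, and the black bars are the mean ± SD. *Smtn* is the 1 gene whose genotypes do not overlap.

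**Figure D3:**
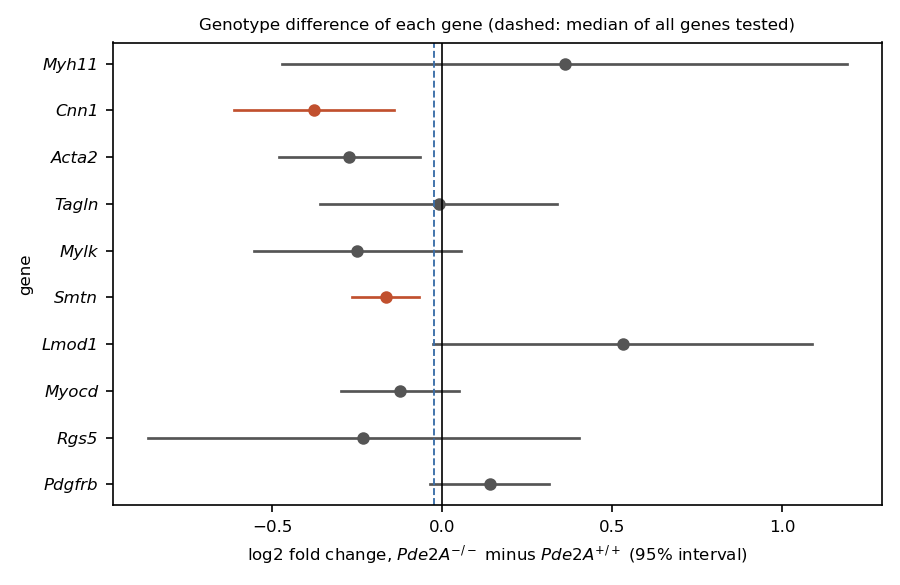
Log2 fold change of each gene in *Pde2A*-/- against *Pde2A*+/+ hearts with its 95% interval (horizontal axis), from edgeR's fit of all genes, with the 2 called genes in red and the median of all genes dashed. The intervals of *Cnn1*, *Acta2* and *Smtn* lie below 0.

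The 10 genes spanned a wide range of levels. Counted per kilobase of exon, the mean in *Pde2A*+/+ hearts was 549 ± 77.4 CPM per kb (SD, n = 6) for *Acta2*, 83.8 ± 19.7 for *Tagln*, 75.0 ± 12.3 for *Cnn1*, 22.2 ± 0.880 for *Smtn*, 15.4 ± 1.40 for *Pdgfrb*, 14.3 ± 1.89 for *Myocd*, 11.6 ± 4.37 for *Rgs5*, 2.62 ± 0.621 for *Mylk*, 1.03 ± 0.512 for *Myh11* and 0.737 ± 0.256 for *Lmod1*. Neighbours in this order overlapped between hearts for *Tagln* and *Cnn1*, for *Pdgfrb*, *Myocd* and *Rgs5*, and for *Myh11* and *Lmod1*. In *Pde2A*-/- hearts the order of the means was the same, from 455 ± 44.2 CPM per kb (SD, n = 5) for *Acta2* to 1.07 ± 0.313 for *Lmod1*. There, *Cnn1* at 57.8 ± 6.70 CPM per kb no longer overlapped *Tagln* at 83.2 ± 16.5, *Smtn* at 19.8 ± 0.951 overlapped *Pdgfrb* at 16.9 ± 2.03, *Pdgfrb* no longer overlapped *Myocd* at 13.1 ± 0.672, and *Mylk* at 2.21 ± 0.286 overlapped *Myh11* at 1.32 ± 0.767.

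*Myh11*, the smooth muscle myosin heavy chain and the most specific smooth muscle gene of the list, was thus among the lowest, above 49.3% of the genes tested in *Pde2A*+/+ hearts, whereas *Acta2* was above 99.8%. The nonmuscle heavy chains *Myh10* and *Myh9* had 75.5 ± 4.33 and 30.0 ± 0.932 CPM per kb in *Pde2A*+/+ hearts (SD, n = 6), and the cardiac chains *Myh7* and *Myh6* had 1606 ± 304 and 492 ± 75.1. The cardiac actin *Actc1* was at 4877 ± 683 CPM per kb, above *Acta2* in every heart. The cardiac light chain kinase *Mylk3* was at 115 ± 8.61 and the cardiac leiomodin *Lmod2* at 53.0 ± 9.06, each above its smooth muscle relative in every heart. *Cnn2* and *Cnn3*, at 97.8 ± 13.2 and 88.4 ± 5.72 CPM per kb, and *Tagln2*, at 94.4 ± 8.97, overlapped *Cnn1* and *Tagln* in *Pde2A*+/+ hearts. The length of each gene covers the exons of all its transcripts, of which a cell may use only some. Values per kilobase are therefore low estimates where the transcripts used are shorter. This length was 11263, 6424, 4380 and 5478 bases for *Mylk*, *Myocd*, *Smtn* and *Pdgfrb*. Their longest transcripts had 7824, 5114, 3386 and 5423 bases, whereas *Lmod1* had 3948 bases by either measure. The order and overlaps of genes close in level, such as *Smtn*, *Pdgfrb* and *Myocd*, can change with the length used. No other length was tried.

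Among the thin filament proteins, *Smtn* (ENSMUSG00000020439, chromosome 11, 3517523 to 3540612, minus strand of GRCm38) encodes smoothelin, an actin-binding protein of contractile smooth muscle. It had 88.3, 92.4, 86.6, 84.2 and 81.4 CPM in *Pde2A*-/- replicates A, B, 14, D and 15, and 93.4 (lowest), 96.6 (median) and 104 (highest) CPM in *Pde2A*+/+ hearts. All 5 *Pde2A*-/- hearts lay below the lowest *Pde2A*+/+ heart, the nearest pair being *Pde2A*-/- replicate B and *Pde2A*+/+ replicate 7. The log2 fold change was −0.17 (standard error 0.05), 0.891-fold, with adjusted p = 0.0293 (edgeR with Benjamini-Hochberg adjustment). The difference was small against the threshold of 2-fold but larger than the spread of either group, 4.17 CPM (SD, n = 5) and 3.85 CPM (SD, n = 6). By the same test, leaving out 1 heart at a time kept the log2 fold change between −0.19 and −0.14, and *Smtn* was past the adjusted p in 4 of these 11 fits. Its adjusted p was 0.0654 without *Pde2A*-/- replicate 14, 0.0767 without D and 0.0687 without 15, and 0.0555, 0.0514, 0.0511 and 0.0572 without *Pde2A*+/+ replicates 6, 8, H and E (edgeR, Benjamini-Hochberg). Without *Pde2A*-/- replicates B and D the log2 fold change was −0.19 with adjusted p = 0.0534 (edgeR, Benjamini-Hochberg). It was −0.14 with adjusted p = 0.364 without the 5 hearts and −0.18 with 0.285 without the 6 hearts (edgeR, Benjamini-Hochberg). Without *Pde2A*+/+ replicates 7 and 11 the gene remained past the test (edgeR, Benjamini-Hochberg). Its mean in *Pde2A*+/+ hearts was 22.2 CPM per kb, against 1.03 for *Myh11*. Which cells of the heart the reads of *Smtn* came from was not tested.

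*Cnn1* (ENSMUSG00000001349, chromosome 9, 22099216 to 22109630, plus strand) encodes calponin, which binds actin and inhibits the myosin ATPase. It had 154.9, 154.8, 176.8, 130.9 and 173.4 CPM in *Pde2A*-/- replicates A, B, 14, D and 15, and 166 (lowest), 200.7 (median) and 261 (highest) CPM in *Pde2A*+/+ hearts. All 5 *Pde2A*-/- hearts were below the *Pde2A*+/+ median and 5 of the 6 *Pde2A*+/+ hearts were above every *Pde2A*-/- heart, but *Pde2A*+/+ replicate E, the lowest, lay among them, so the groups overlapped. Its log2 fold change was −0.38 (standard error 0.11), 0.771-fold, with adjusted p = 0.0366 (edgeR with Benjamini-Hochberg adjustment). Leaving out 1 heart at a time gave log2 fold changes from −0.43 to −0.29, and *Cnn1* was past the adjusted p in 4 of 11 such fits. Its adjusted p was 0.0533, 0.0985 and 0.0508 without *Pde2A*-/- replicates B, D and 15, and 0.0668, 0.0687, 0.0614 and 0.0548 without *Pde2A*+/+ replicates 7, 6, 8 and H (edgeR, Benjamini-Hochberg). Without *Pde2A*+/+ replicates 7 and 11 it was −0.39 with adjusted p = 0.0604, and without *Pde2A*-/- replicates B and D −0.29 with 0.17 (edgeR with Benjamini-Hochberg). Without the 5 hearts it was −0.48 with adjusted p = 0.0961 and without the 6 hearts −0.46 with 0.165 (same test, edgeR with Benjamini-Hochberg).

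*Acta2* (ENSMUSG00000035783, chromosome 19, 34241090 to 34255590, minus strand), the smooth muscle α-actin, had 999.9, 1123, 1015, 851 and 1004 CPM in *Pde2A*-/- replicates A, B, 14, D and 15, and 959 (lowest), 1189 (median) and 1457 (highest) CPM in *Pde2A*+/+ hearts. All 5 *Pde2A*-/- hearts were below the *Pde2A*+/+ median and 5 of 6 *Pde2A*+/+ hearts were above every *Pde2A*-/- heart, with *Pde2A*+/+ replicate 11 as the exception. The log2 fold change was −0.27 (95% interval −0.48 to −0.07), and the adjusted p of 0.0732 missed the threshold (edgeR with Benjamini-Hochberg adjustment). DESeq2 placed it past the threshold, with adjusted p = 0.0294 after Benjamini-Hochberg adjustment. So did edgeR without *Pde2A*-/- replicate B (0.0459), without *Pde2A*+/+ replicate 11 (0.0250), and without *Pde2A*+/+ replicates 7 and 11 (0.0374, all adjusted p by Benjamini-Hochberg). Without *Pde2A*-/- replicates B and D it was at 0.152, without the 5 hearts at 0.199 and without the 6 hearts at 0.195, with log2 fold changes of −0.26, −0.32 and −0.37 (edgeR, Benjamini-Hochberg). Of 50-base stretches of its longest transcript, 0.352% lay exactly in a transcript of another gene, and stretches that are alike but not identical, as between actins, were not counted.

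*Tagln* (ENSMUSG00000032085, chromosome 9, 45929619 to 45936058, minus strand) encodes transgelin, an actin-bundling protein. It had 132.8, 151, 189, 144 and 210.3 CPM in *Pde2A*-/- replicates A, B, 14, D and 15, and 122 (lowest), 161 (median) and 210.7 (highest) CPM in *Pde2A*+/+ hearts. Both groups covered nearly the same range. Between genotypes the log2 fold change was −0.01 with a 95% interval from −0.36 to 0.34, from 0.780-fold to 1.26-fold (adjusted p = 0.979, edgeR with Benjamini-Hochberg adjustment). Its sign turned in 9 of the 24 alternative fits.

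*Lmod1* (ENSMUSG00000048096, chromosome 1, 135324807 to 135368065, plus strand), a leiomodin that starts actin filaments in smooth muscle, had between 63 and 202 counts per heart. It had 3.58, 4.77, 2.34, 5.13 and 5.23 CPM in *Pde2A*-/- replicates A, B, 14, D and 15, and 1.71 (lowest), 2.80 (median) and 4.07 (highest) CPM in *Pde2A*+/+ hearts. Replicates B, D and 15 were above every *Pde2A*+/+ heart, whereas replicate 14, the lowest of its genotype, was above 3 of the 6 *Pde2A*+/+ hearts. The log2 fold change of 0.53 (95% interval −0.03 to 1.09) was not past the test (adjusted p = 0.185, edgeR with Benjamini-Hochberg adjustment).

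In the thick filament, *Myh11* (ENSMUSG00000018830, chromosome 16, 14194535 to 14291372, minus strand) had 6.26, 5.55, 6.05, 13.8 and 18.5 CPM in *Pde2A*-/- replicates A, B, 14, D and 15, and 3.40 (lowest), 6.70 (median) and 13.9 (highest) CPM in *Pde2A*+/+ hearts. *Pde2A*-/- replicates D and 15 and *Pde2A*+/+ replicates 11 and E were high and the other hearts low, so the variation within a genotype, 58.1% and 49.9% of the mean, was the largest of the 10 genes. Its log2 fold change was 0.36 with a 95% interval from −0.47 to 1.19 (adjusted p = 0.581, edgeR with Benjamini-Hochberg adjustment), so a 2-fold rise lay inside the interval and a 2-fold fall outside it. With 1 heart left out the log2 fold change ranged from 0.02 without *Pde2A*-/- replicate 15 to 0.60 without *Pde2A*+/+ replicate 11, and was not past the test. Of 50-base stretches of its longest transcript, 0.4% lay exactly in a transcript of *Myh9* or *Myh10*, which were more abundant.

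*Mylk* (ENSMUSG00000022836, chromosome 16, 34745210 to 35002420, plus strand), which encodes smooth muscle myosin light chain kinase, had 23.6, 20.04, 27.4, 28.1 and 25.0 CPM in *Pde2A*-/- replicates A, B, 14, D and 15, and 23.5 (lowest), 27.9 (median) and 42.8 (highest) CPM in *Pde2A*+/+ hearts. The groups overlapped widely, and the highest heart was *Pde2A*+/+ replicate 11, which also had the highest sum of the lung and airway list. The log2 fold change was −0.25 (adjusted p = 0.256, edgeR with Benjamini-Hochberg adjustment), and −0.11 without that heart and 0.0095 without the 6 hearts with genes of other tissues.

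*Myocd* (ENSMUSG00000020542, chromosome 11, 65176561 to 65269989, minus strand), the coactivator of serum response factor, had 89.3, 81.3, 79.8, 82.6 and 88.5 CPM in *Pde2A*-/- replicates A, B, 14, D and 15, and 80.7 (lowest), 87.04 (median) and 112 (highest) CPM in *Pde2A*+/+ hearts. *Pde2A*+/+ replicates H and E, at 112 and 100.5 CPM, were above all *Pde2A*-/- hearts, and the other hearts of both groups shared 1 range. Between genotypes the log2 fold change was −0.12 (adjusted p = 0.332, edgeR with Benjamini-Hochberg adjustment), and −0.05 without *Pde2A*+/+ replicate H. Its sign turned without the 5 hearts with other tissues (0.0301) and without the 6 hearts (0.0374).

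Of the pericyte genes, *Rgs5* (ENSMUSG00000026678, chromosome 1, 169655501 to 169695813, plus strand) encodes a regulator of G-protein signaling. It had 58.04, 51.5, 19.7, 53.9 and 42.5 CPM in *Pde2A*-/- replicates A, B, 14, D and 15, and 25.3 (lowest), 54.0 (median) and 76.9 (highest) CPM in *Pde2A*+/+ hearts. The lowest heart of each genotype, *Pde2A*-/- replicate 14 and *Pde2A*+/+ replicate 8, was far below most others of its group. The log2 fold change was −0.23 with a 95% interval from −0.86 to 0.40 (adjusted p = 0.653, edgeR with Benjamini-Hochberg adjustment). It ranged from −0.37 without *Pde2A*+/+ replicate 8 to −0.04 without *Pde2A*-/- replicate 14 when 1 heart was left out. Its sign turned without the 5 hearts with other tissues (0.16) and without the 6 hearts (0.0485).

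*Pdgfrb* (ENSMUSG00000024620, chromosome 18, 61045150 to 61085061, plus strand), the receptor through which pericytes are recruited, had 84.0, 89.4, 83.0, 109.6 and 98.0 CPM in *Pde2A*-/- replicates A, B, 14, D and 15, and 75.0 (lowest), 82.9 (median) and 93.1 (highest) CPM in *Pde2A*+/+ hearts. All 5 *Pde2A*-/- hearts were above the *Pde2A*+/+ median, with replicates D and 15 above every *Pde2A*+/+ heart. Its log2 fold change was 0.14 with a 95% interval from −0.04 to 0.32 (adjusted p = 0.273, edgeR with Benjamini-Hochberg adjustment), and it was 0.07 without *Pde2A*-/- replicate D.

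Relative to the mean log2 CPM of its genotype, *Pde2A*-/- replicate 15 was above for 6 of the 7 genes and replicate A for 2. *Pde2A*+/+ replicate 6 had the highest *Cnn1*, *Acta2* and *Tagln* and a *Mylk* level 0.30 below its genotype mean on the log2 scale, and *Pde2A*+/+ replicate 11 had the lowest *Acta2* and *Lmod1* of its genotype with *Mylk* 0.56 and *Myh11* 0.98 above. The genes outside the list with the smallest root mean square difference from the mean deviation of the 7 genes, over the 11 hearts and among the 14014 genes averaging 1 CPM or more, were *Nthl1* (0.06 on the log2 scale), *Tor4a* (0.07), *Fbxl12*, *B3galnt1* and *Proser3* (0.08 each). The median of all these genes was 0.19, and a gene with the same level in every heart would be at 0.14. Each of the 7 genes lay farther than that from their mean, from 0.17 for *Smtn* to 0.59 for *Myh11*. Nearness to the mean is therefore not nearness to the 7 genes. Of the 5 nearest genes, *Tor4a* was higher in *Pde2A*-/- hearts, by 0.42 on the log2 scale (adjusted p = 0.00419, edgeR with Benjamini-Hochberg adjustment). Its adjusted p was 0.127 without the 5 hearts with other tissues and 0.195 without the 6 hearts (edgeR, Benjamini-Hochberg).

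Other genes of the same apparatus were read from lists. Of 10 genes of serum response factor and its partners, 1 was higher and 1 lower in *Pde2A*-/- hearts by the same test, with a median log2 fold change of −0.01 (edgeR; 2 at an unadjusted p under 0.05, and 1 higher and 1 lower by DESeq2). *Mrtfa*, which couples actin dynamics to serum response factor, had 28.0, 28.7, 27.3, 28.3 and 24.4 CPM in *Pde2A*-/- replicates A, B, 14, D and 15 and 29.7 (lowest), 32.2 (median) and 35.4 (highest) CPM in *Pde2A*+/+ hearts, without overlap. It fell by 0.26 on the log2 scale (adjusted p = 0.0159, standard error 0.06, edgeR with Benjamini-Hochberg adjustment). *Hdac7*, a histone deacetylase, had 72.5, 84.8, 75.3, 84.6 and 85.4 CPM in the same *Pde2A*-/- hearts and 62.4, 68.5 and 70.3 CPM as the lowest, median and highest *Pde2A*+/+ hearts. It rose by 0.26 on the log2 scale, also without overlap (adjusted p = 0.0101, edgeR with Benjamini-Hochberg adjustment). Both kept their call with each heart left out in turn, but without *Pde2A*+/+ replicates 7 and 11 *Mrtfa* was at adjusted p = 0.0662, without *Pde2A*-/- replicates B and D *Hdac7* was at 0.0673 (edgeR with Benjamini-Hochberg adjustment). Without the 5 hearts with other tissues *Mrtfa* and *Hdac7* were at 0.21 and 0.229 (edgeR with Benjamini-Hochberg adjustment). *Fhl2*, the most abundant gene of the list, had a log2 fold change of −0.01.

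Of 18 further genes of the smooth muscle cytoskeleton, 1 was lower and 0 higher, with a median log2 fold change of −0.04 (edgeR; 6 at an unadjusted p under 0.05, and 2 lower and 1 higher by DESeq2). The gene was *Tpm1*, a tropomyosin that cardiomyocytes also express and the most abundant of the list. It had 2613, 2926, 2772, 2499 and 2636 CPM in *Pde2A*-/- replicates A, B, 14, D and 15 and 2774 (lowest), 3102 (median) and 3588 (highest) CPM in *Pde2A*+/+ hearts, which overlapped. Its log2 fold change was −0.23 (adjusted p = 0.0361, edgeR with Benjamini-Hochberg adjustment), and it was past the test in 4 of 11 fits with 1 heart left out. Its adjusted p was 0.0662, 0.0677, 0.0947 and 0.0804 without *Pde2A*-/- replicates A, 14, D and 15, and 0.0739, 0.0688 and 0.0577 without *Pde2A*+/+ replicates 6, 8 and H (edgeR with Benjamini-Hochberg adjustment). It was 0.0844 without *Pde2A*-/- replicates B and D, 0.115 without the 5 hearts with other tissues and 0.0514 with no minimum on counts (edgeR with Benjamini-Hochberg adjustment).

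Genes that control the phosphorylation of the light chain numbered 14, of which 2 were higher and 0 lower, with a median log2 fold change of 0.10 (edgeR; 7 at an unadjusted p under 0.05, and 5 higher and 1 lower by DESeq2). *Itpr1*, which releases calcium from internal stores, had 151, 147, 174, 183 and 188 CPM in *Pde2A*-/- replicates A, B, 14, D and 15 and 119.5 (lowest), 134.5 (median) and 142 (highest) CPM in *Pde2A*+/+ hearts. All 5 *Pde2A*-/- hearts were above the *Pde2A*+/+ hearts, and the gene rose by 0.35 on the log2 scale (adjusted p = 0.00833, standard error 0.07, edgeR with Benjamini-Hochberg adjustment). *Ppp1r14a*, an inhibitor of myosin phosphatase, had 7.86 ± 1.52 CPM in *Pde2A*-/- (SD, n = 5) and 5.70 ± 0.409 CPM in *Pde2A*+/+ hearts (SD, n = 6). It rose by 0.46 on the log2 scale with overlap, since *Pde2A*-/- replicate A at 5.69 CPM lay among the *Pde2A*+/+ hearts (adjusted p = 0.0256, edgeR with Benjamini-Hochberg adjustment). Its adjusted p was 0.0706, 0.0709 and 0.0711 without *Pde2A*-/- replicates 14, D and 15, 0.0539 without *Pde2A*+/+ replicate 8, 0.0652 without *Pde2A*+/+ replicates 7 and 11, 0.0699 without *Pde2A*-/- replicates B and D and 0.31 without the 5 hearts, a fit in which *Itpr1* was at 0.174 (edgeR with Benjamini-Hochberg adjustment). *Ppp1cb*, the catalytic subunit of that phosphatase and the most abundant gene of the list, had a log2 fold change of 0.01.

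Among 15 further pericyte genes, 2 were higher and 2 lower, with a median log2 fold change of 0.06 (edgeR; 7 at an unadjusted p under 0.05, and 4 higher and 2 lower by DESeq2). *Ndufa4l2*, which encodes a mitochondrial protein, had 6.81, 13.5, 23.0, 29.4 and 37.5 CPM in *Pde2A*-/- replicates A, B, 14, D and 15 and 5.43 (lowest), 7.75 (median) and 10.3 (highest) CPM in *Pde2A*+/+ hearts. Replicate A lay within the *Pde2A*+/+ range and the other *Pde2A*-/- hearts above it. The gene rose by 1.44 on the log2 scale (adjusted p = 0.0148, standard error 0.34, edgeR with Benjamini-Hochberg adjustment). *Cox4i2*, a subunit of cytochrome c oxidase, rose by 0.996 on the log2 scale, from 4.44 ± 0.996 (SD, n = 6) to 8.86 ± 3.46 CPM (SD, n = 5), again with replicate A inside the *Pde2A*+/+ range (adjusted p = 0.0186, edgeR with Benjamini-Hochberg adjustment). Without *Pde2A*+/+ replicates 7 and 11 *Ndufa4l2* was at adjusted p = 0.0503, and *Cox4i2* was at 0.0509, 0.0525 and 0.0529 without *Pde2A*-/- replicates 14, D and 15 (edgeR with Benjamini-Hochberg adjustment). *Kcnj8*, a potassium channel subunit, fell by 0.31 on the log2 scale (adjusted p = 0.0465), and *Tbx18*, a transcription factor of pericytes and epicardium named after its value was seen, fell by 0.31 as well (0.0466, both edgeR with Benjamini-Hochberg adjustment). *Kcnj8* was past the test in 1 of 11 fits with 1 heart left out, that without *Pde2A*-/- replicate D, with adjusted p up to 0.111 in the others. It also missed the threshold with no minimum on counts (0.0599), on both strands (0.0511), without globins (0.0512), with sex as a term (0.0581), without *Pde2A*+/+ replicates 7 and 11 (0.11) and without *Pde2A*-/- replicates B and D (0.0548), and in 18 of 24 alternatives in all (adjusted p, edgeR with Benjamini-Hochberg adjustment). *Tbx18* was past it in 4 of 11, with 0.0883, 0.116 and 0.103 without *Pde2A*-/- replicates 14, D and 15 and 0.0521, 0.0731, 0.091 and 0.0824 without *Pde2A*+/+ replicates 7, 11, 6 and 8 (edgeR with Benjamini-Hochberg adjustment). The value was 0.0776 without replicates 7 and 11, 0.157 without *Pde2A*-/- replicates B and D and 0.0786 with the naming style of the label as a term (edgeR with Benjamini-Hochberg adjustment). *Abcc9*, the partner of *Kcnj8* in the channel and the most abundant gene of the list, had a log2 fold change of 0.26 that was not past the test (adjusted p = 0.0787, or 0.0351 without *Pde2A*-/- replicate A, edgeR with Benjamini-Hochberg adjustment). It was past the threshold by DESeq2 (0.0394) and by edgeR with sex as a term (0.0231, both adjusted p by Benjamini-Hochberg).

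Of the 5 platelet-derived growth factor genes other than *Pdgfrb*, 1 was higher and 0 lower, with a median of 0.04 (edgeR; 2 at an unadjusted p under 0.05, and 1 higher and 0 lower by DESeq2). The ligand of *Pdgfrb*, *Pdgfb*, had 31.2 ± 8.97 CPM in *Pde2A*-/- (SD, n = 5) and 31.8 ± 4.52 CPM in *Pde2A*+/+ hearts (SD, n = 6). *Pdgfra*, the related receptor of fibroblasts, had 136, 113, 109.9, 121 and 111 CPM in *Pde2A*-/- replicates A, B, 14, D and 15 and 90.5 (lowest), 98.3 (median) and 104 (highest) CPM in *Pde2A*+/+ hearts. It rose by 0.27 on the log2 scale without overlap (adjusted p = 0.0162, or 0.0536 without *Pde2A*-/- replicates B and D, standard error 0.06, edgeR with Benjamini-Hochberg adjustment).

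Smooth muscle cells also build elastic fibres, and of 12 such genes 2 were higher and 0 lower, with a median log2 fold change of 0.13 (edgeR; 4 at an unadjusted p under 0.05, and 2 higher and 1 lower by DESeq2). *Emilin1* had 307, 321, 322, 288 and 325 CPM in *Pde2A*-/- replicates A, B, 14, D and 15 and 255 (lowest), 264 (median) and 282 (highest) CPM in *Pde2A*+/+ hearts, and rose by 0.23 on the log2 scale without overlap (adjusted p = 0.0061, edgeR with Benjamini-Hochberg adjustment). *Mfap4* rose by 0.30 with overlap (adjusted p = 0.0436, edgeR with Benjamini-Hochberg adjustment) and was past the test in 5 of 11 fits with 1 heart left out. Its adjusted p was 0.122 and 0.107 without *Pde2A*-/- replicates D and 15 and 0.0609, 0.0863, 0.0831 and 0.0796 without *Pde2A*+/+ replicates 7, 6, 8 and H (edgeR with Benjamini-Hochberg adjustment). It was 0.161 without *Pde2A*-/- replicates B and D, 0.0651 with naming style as a term and 0.0525 with upper-quartile factors (edgeR with Benjamini-Hochberg adjustment). *Eln*, which encodes elastin and was the most abundant, had 1053.5 ± 354 CPM in *Pde2A*-/- (SD, n = 5) and 984 ± 387 CPM in *Pde2A*+/+ hearts (SD, n = 6).

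The relatives of the 10 genes that other cells use gave 5 higher and 0 lower of 23, with a median log2 fold change of 0.10 (edgeR; 7 at an unadjusted p under 0.05, and 6 higher and 1 lower by DESeq2). They included the nonmuscle actins *Actg1*, with a log2 fold change of 0.36, and *Actb*, with 0.23, next to −0.27 for *Acta2*. *Tagln2* rose by 0.29 where *Tagln* had −0.01, and *Smtnl2* rose by 0.29 where *Smtn* fell by 0.17. The largest adjusted p of these 4 was 0.0363, of *Actb* (edgeR with Benjamini-Hochberg adjustment). *Pdgfra* was the fifth gene. *Actg1* was past the test in 3 and *Actb* in 4 of 11 fits with 1 heart left out, and neither was without *Pde2A*-/- replicates 14, D or 15 or *Pde2A*+/+ replicates 11, 6, H or E, nor was *Actg1* without *Pde2A*+/+ replicate 7 (adjusted p up to 0.0959 and 0.102, edgeR with Benjamini-Hochberg adjustment). *Tagln2* was at 0.0508 without *Pde2A*-/- replicate 14 and *Smtnl2* at 0.0646 without D, and without *Pde2A*+/+ replicates 7 and 11 they were at 0.0674 and 0.075, with *Actg1* at 0.0902 and *Actb* at 0.0624 (same test and adjustment). Without *Pde2A*-/- replicates B and D, *Actg1*, *Actb* and *Tagln2* were at 0.0662, 0.119 and 0.063 (edgeR with Benjamini-Hochberg adjustment). The differences between relatives were not tested. *Myh7*, the most abundant relative, had a log2 fold change of −0.08.

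Markers of other cell types were read beside these genes, and their part in the results was not tested. Of 12 cardiomyocyte genes, 2 were lower and 1 higher, with a median log2 fold change of −0.15 (edgeR; 6 lower and 1 higher at an unadjusted p under 0.05, and 6 lower and 1 higher by DESeq2). Their summed level was 38466, 42074, 41575, 39325 and 45045 CPM in *Pde2A*-/- replicates A, B, 14, D and 15 and 37532 (lowest), 42644 (median) and 50028 (highest) CPM in *Pde2A*+/+ hearts, with *Myh7* the most abundant. The highest sum was in *Pde2A*+/+ replicate 6, which also had the highest *Cnn1*, *Acta2* and *Tagln*, and the lowest in *Pde2A*+/+ replicate 11, which had the lowest *Acta2* of its genotype. Not all hearts followed this. *Pde2A*+/+ replicate E, lowest of its genotype for *Cnn1* and *Tagln*, had a sum of 44207 CPM, above the median. In *Pde2A*-/- replicates 15 and A, with the highest and lowest sum of their genotype, *Acta2* was at 1004 and 999.9 CPM. The called genes were *Nppa*, which rose by 0.87 on the log2 scale, *Ttn*, which fell by 0.51, and *Tnni1*, which fell by 0.41 (largest adjusted p = 0.0127, edgeR with Benjamini-Hochberg adjustment). *Nppa* was at adjusted p = 0.0545 without *Pde2A*-/- replicates B and D (same test, edgeR with Benjamini-Hochberg adjustment). *Myl2*, *Myl3*, *Tnnt2* and *Tnni3* had log2 fold changes of −0.42, −0.28, −0.25 and −0.18 that were past the unadjusted but not the adjusted threshold (adjusted p from 0.0684 to 0.0902, edgeR with Benjamini-Hochberg adjustment).

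Of 10 endothelial genes, 4 were higher and 1 lower, with a median of 0.19 (edgeR; 8 at an unadjusted p under 0.05, and 6 higher and 1 lower by DESeq2). Their sum was 1516, 1619, 1519, 1510.5 and 1591 CPM in *Pde2A*-/- replicates A, B, 14, D and 15 and 1207 (lowest), 1363 (median) and 1437 (highest) CPM in *Pde2A*+/+ hearts, so it was higher in every *Pde2A*-/- heart. *Flt1* rose by 0.72 and *Emcn* by 0.50 on the log2 scale, *Cldn5* fell by 0.79 (largest adjusted p = 0.00389, edgeR with Benjamini-Hochberg adjustment), and the most abundant, *Cdh5*, had 317 ± 34.7 CPM (SD, n = 5) and 317 ± 27.2 CPM (SD, n = 6). Of 10 fibroblast genes, 4 were higher and 0 lower, with a median of 0.22 (edgeR; 5 at an unadjusted p under 0.05, and 4 higher and 0 lower by DESeq2). Their sum ranged from 7181 to 11597 CPM in *Pde2A*-/- and from 6048 to 11157 CPM in *Pde2A*+/+ hearts, highest in *Pde2A*-/- replicate D and *Pde2A*+/+ replicate 11, which were among the 4 hearts with high *Myh11*, and *Col3a1* was the most abundant. *Postn* rose by 0.42, *Ogn* by 0.42 and *Tcf21* by 0.30 (largest adjusted p = 0.036, edgeR with Benjamini-Hochberg adjustment). *Tcf21* was at 0.0501 without *Pde2A*-/- replicate 14, 0.0718 without *Pde2A*+/+ replicates 7 and 11 and 0.0512 without *Pde2A*-/- replicates B and D (edgeR with Benjamini-Hochberg adjustment). *Ogn* lost its call without *Pde2A*-/- replicates 14, D or 15 or *Pde2A*+/+ replicates 7, 6, H or E, with adjusted p up to 0.104, and was at 0.0837 without *Pde2A*-/- replicates B and D (same test).

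Of 8 epicardial genes, 0 were called in either direction (edgeR; 1 at an unadjusted p under 0.05, and 1 higher and 0 lower by DESeq2), with a median of 0.18, sums from 292 to 521 CPM in *Pde2A*-/- and from 224 to 564 CPM in *Pde2A*+/+ hearts and *Upk3b* the most abundant. Of 8 macrophage genes, 7 were higher and 0 lower, with a median of 0.94 (edgeR; 8 at an unadjusted p under 0.05, and 8 higher and 0 lower by DESeq2). Their sum was 204 to 257 CPM in *Pde2A*-/- and 102 to 160 CPM in *Pde2A*+/+ hearts, without overlap, *Csf1r* was the most abundant, and *Fcgr3*, *C1qb* and *Cd68* rose by 1.43, 1.001 and 0.99 on the log2 scale. Of 10 erythroid genes, 5 were higher and 1 lower, with a median of 0.94 (edgeR; 7 at an unadjusted p under 0.05, and 5 higher and 1 lower by DESeq2), sums of 3422 to 5793 CPM in *Pde2A*-/- and 3210 to 13225 CPM in *Pde2A*+/+ hearts, and the globin *Hbb-bs* the most abundant. *Hemgn*, *Klf1* and *Ermap*, genes of red cell precursors, rose by 4.94, 4.10 and 4.05 on the log2 scale. The 5 genes called higher were the 5 with a positive sign, and the other 5, among them *Hbb-bs* at −0.51, had negative log2 fold changes, so the median lay between these groups. The sign of *Hbb-bs* turned without the 5 and without the 6 hearts with other tissues. *Hbb-bt*, named after its value was seen, was the gene called lower, with 359 to 576 CPM in *Pde2A*-/- and 601 to 2523 CPM in *Pde2A*+/+ hearts. It fell by 1.43 on the log2 scale (adjusted p = 0.0105, edgeR with Benjamini-Hochberg adjustment), and by 0.56 without the 5 hearts with other tissues and 0.65 without the 6, where it was not past the test. In *Pde2A*-/- replicate A and *Pde2A*+/+ replicate 6, *Hbb-bs* was at 1263 and 1155 CPM and *Hbb-bt* at 359 and 601 CPM. In *Pde2A*-/- replicate B and *Pde2A*+/+ replicate E, *Hbb-bs* was at 2238 and 1925 CPM and *Hbb-bt* at 574 and 931 CPM. *Hbb-bt* was thus lower in these *Pde2A*-/- hearts also beside *Hbb-bs*, and the cause was not tested. Reads that *Hbb-bt* could share with its near copy *Hbb-bs* were not examined. Of 10 skeletal muscle genes, 1 was higher and 0 lower (edgeR; 3 at an unadjusted p under 0.05, and 1 higher and 0 lower by DESeq2), *Tnnt3*, which was past the test in 2 of 11 fits with 1 heart left out (those without *Pde2A*-/- replicate A and *Pde2A*+/+ replicate 8), and *Ckm*, which the heart also expresses, was the most abundant. *Tnnt3* was at adjusted p = 0.314 without *Pde2A*-/- replicates B and D, the hearts with high *Myh3* and *Myh8*, at 0.107 without *Pde2A*+/+ replicates 7 and 11 and at 0.0777 with naming style as a term (edgeR with Benjamini-Hochberg adjustment). The median of that list was 1.14, and its sum, most of which was *Ckm*, was 404.5 to 725 CPM in *Pde2A*-/- and 341 to 718 CPM in *Pde2A*+/+ hearts. Of 8 genes of neural crest and neurons, 1 was higher and 0 lower (edgeR; 1 at an unadjusted p under 0.05, and 1 higher and 0 lower by DESeq2), *Ednrb*, which was also the most abundant, and *Foxd3* was at 0 in every heart. Their sum was 197 to 269.9 CPM in *Pde2A*-/- and 137 to 178 CPM in *Pde2A*+/+ hearts, with a median of 0.32 over the genes. In the lung, liver and thymus lists 0 of the genes tested were called (edgeR; 2, 2 and 6 at an unadjusted p under 0.05, and 1, 0 and 0 by DESeq2).

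Without the 5 hearts with other tissues, 353 genes were higher and 29 lower among all genes (edgeR), and of the list genes named as called, *Mfap4*, *C1qb*, *Cd68*, *Hemgn*, *Klf1* and *Ermap* were past the test and the others were not. Without the 6 hearts, 206 genes were higher and 22 lower, and of the named genes *Cd68*, *Hemgn*, *Klf1* and *Ermap* were past it (edgeR). Without *Pde2A*-/- replicates B and D, 1353 were higher and 471 lower (edgeR), and *Mrtfa*, *Itpr1*, *Ndufa4l2*, *Cox4i2*, *Emilin1* and *Smtnl2* were among the named genes past the test.

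Regions before RefSeq starts of *Acta2*, *Cnn1* and *Smtn* are shown because these 3 genes had the lowest p of the 10 and the same direction. RefSeq windows (GRCm38.p6) of 300 bases, 250 before and 50 after a RefSeq start, were at hand for 6 of the 10 genes: *Acta2*, *Cnn1*, *Smtn*, *Lmod1*, *Mylk* and *Rgs5*. *Myh11*, *Tagln*, *Myocd* and *Pdgfrb* had no entry. The CArG box, whose pattern reads the same on both strands, was in 0 of the 6 windows and in 1.63% of all 32851 windows. With up to 1 mismatch, a search added after the data had been seen, it was in 2 of the 6 windows, those of *Acta2* and *Lmod1*, and in 21.1% of all windows. Only the 250 bases before the start are printed, 5′ to 3′ on the strand of the gene, for *Acta2* at chr19:34255374-34255623 (minus strand), *Cnn1* at chr9:22099003-22099252 (plus strand) and *Smtn* at chr11:3539293-3539542 (minus strand). These starts differ from the bounds of the genes given above, so that the stretch of *Smtn* lies wholly, that of *Acta2* mostly and that of *Cnn1* in part inside the annotated gene. Capitals mark the stretches of *Acta2* that differ from the CArG box at 1 base, which begin 84 and 34 bases before the RefSeq start, while *Cnn1* and *Smtn* have none.
Acta2: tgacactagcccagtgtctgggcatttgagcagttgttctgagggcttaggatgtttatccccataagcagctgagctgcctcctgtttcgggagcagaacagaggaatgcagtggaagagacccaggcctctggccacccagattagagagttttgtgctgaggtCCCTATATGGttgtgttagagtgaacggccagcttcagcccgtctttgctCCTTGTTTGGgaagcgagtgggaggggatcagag
Cnn1: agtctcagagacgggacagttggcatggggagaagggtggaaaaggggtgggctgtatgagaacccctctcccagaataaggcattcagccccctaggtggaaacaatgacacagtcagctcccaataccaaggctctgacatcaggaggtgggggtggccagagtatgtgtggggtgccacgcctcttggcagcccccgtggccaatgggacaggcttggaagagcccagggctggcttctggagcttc
Smtn: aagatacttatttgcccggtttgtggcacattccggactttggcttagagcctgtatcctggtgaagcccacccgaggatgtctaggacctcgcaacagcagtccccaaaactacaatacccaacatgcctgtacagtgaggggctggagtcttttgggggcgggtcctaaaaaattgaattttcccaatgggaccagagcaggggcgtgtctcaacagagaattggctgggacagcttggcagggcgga
A match is a description of the letters, not of a bound site.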

How the data were processed

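RNA was sequenced from 11 hearts, 5 knockout and 6 wild type, grouped by the labels. Per the labels and methods, the authors aligned reads with STAR to GRCm38 (version not given in the sources used here) and deposited counts of reads per gene; the counts on the strand of the gene were used. Reads not counted for any gene, those lying on several genes included, were 19.6% to 22.4% and were left out of library sizes. Symbols came from GENCODE M21 (55227 of 55487 identifiers matched). A gene needed 10 counts summed over hearts to be tested in edgeR 4.0.16 (R 4.3.3, quasi-likelihood test, TMM factors, Benjamini-Hochberg adjustment), with genotype alone. Other values were computed in Python 3.11.15 with pandas 2.3.3, numpy 2.4.6 and scipy 1.17.1, and figures in matplotlib 3.10.9. The main fit was tested on simulated data, where it called 89 of 100 genes with an absolute log2 change of 1. It called 100 of 100 with a change of 2, with 10 wrong calls in that simulation and 0 in one without changes. Smaller changes, such as those of *Smtn* and *Cnn1*, were not simulated. p-values measure the spread between hearts of unknown litter. No 2 libraries were the same within counting error. The median over genes of the squared difference, relative to counting error, was 2.50 to 4.93 between *Pde2A*-/- replicate A and the *Pde2A*+/+ hearts. Between replicate A and *Pde2A*-/- replicates B, 14, D and 15 it was 2.51, 6.51, 9.60 and 15.3.

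All 10 genes are named, and of each list the most abundant gene and the 3 largest changes among called genes, or fewer. Outside this rule, *Myl2*, *Myl3*, *Tnnt2* and *Tnni3* are named for passing the unadjusted threshold only, and some organ genes and relatives for their levels. The members and lists were chosen with earlier results of these data known, and *Tbx18*, *Actb*, *Pdgfb* and *Hbb-bt* were named after their values were seen. Alternatives were DESeq2 1.42.0, its size factors, upper-quartile factors, other filters on counts, both strands, no globins, naming style of the replicate label or sex as a term, other thresholds and each heart left out. Sex was inferred for each heart from counts of *Xist* against those of Y chromosome genes. *Xist* was above in *Pde2A*-/- replicates A and 14 and, among *Pde2A*+/+ hearts, in replicate 8 alone. Leaving out hearts with genes of other tissues (4 sets of hearts), and the CArG box with 1 mismatch, were chosen after seeing the data, as were the promoters shown.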

Additional observations from a re-analysis of the deposited data

Results flagged for a closer look

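In 14 of 134 groups of hearts examined, 1 heart lay far from the others of its genotype by Dixon's rule, the gap to the next heart over the range. The rule flags about 1 in 20 groups by chance if values are normal and groups independent. These groups are not independent, since *Afp* and the liver sum flagged the same hearts, so 14 cannot be judged against that rate. Among the 10 genes, *Mylk* was at 42.8 CPM in *Pde2A*+/+ replicate 11 against 23.5 to 30.4 CPM in the others, and *Smtn* at 104 CPM in *Pde2A*+/+ replicate E against 93.4 to 97.2 CPM. *Pde2A*-/- replicate 15 was apart for *Fhl2* (340 CPM against 246 to 266), *Ppp1cb* (688 against 591 to 617) and *Myh7* (16020 against 12040 to 12840). *Pde2A*+/+ replicate 8 was low for *Ppp1r14a* (4.91 CPM against 5.73 to 6.11) and high for *Tcf21* (38.96 CPM against 28.7 to 31.4). *Pde2A*+/+ replicate E was high for *Cd68*, at 4.44 CPM against 2.77 to 3.26.

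The others belong to the organ lists. *Afp* was at 21.1 CPM in *Pde2A*-/- replicate D against at most 0.413 CPM in its group, and at 49.6 CPM in *Pde2A*+/+ replicate E against at most 18.7 CPM. The summed liver genes were at 37.0 CPM in replicate D against at most 2.4 CPM, and at 112.5 CPM in replicate E against at most 43.0 CPM. *Pde2A*+/+ replicate 7 had 24.2 CPM of *Ccl25* against at most 5.54 CPM, and a thymus sum of 127 CPM against at most 7.92 CPM.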

How the results depend on the processing

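Over 1534 alternative values of single genes, 1256 kept their direction and their side of the threshold, 188 lost the call, 11 gained it and 79 changed sign. No member was called higher in any alternative. The number of members called lower, 2, became 0 with a 2-fold condition, 0 without *Pde2A*-/- replicates B and D, 0 without the 5 and 0 without the 6 hearts with other tissues, and 0 to 3 with 1 heart left out; it was 0 without *Pde2A*-/- replicates D or 15 or *Pde2A*+/+ replicates 6, 8 or H, and 1 without *Pde2A*-/- replicate 14 or *Pde2A*+/+ replicates 7 or E. The cause was not tested. Of all genes, DESeq2 called 2791 higher and 2354 lower, against 2160 and 1372, and leaving out 1 heart gave 1288 to 2887 higher and 414 to 2165 lower. Without *Pde2A*+/+ replicates 7 and 11, 1486 were higher and 744 lower, without *Pde2A*-/- replicates B and D 1353 and 471, without the 5 hearts 353 and 29 and without the 6 hearts 206 and 22. No paired analysis was possible because the replicate labels of the genotypes share no number.

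The log2 fold changes that changed sign were not past the test in either fit. *Cdh5* was −0.00051 with DESeq2 and with its size factors, −0.0139 with upper-quartile factors, −0.0047 with edgeR's own filter, −0.0423 with naming style and −0.0062 with sex as a term, and −0.0758 without replicates 7 and 11. Upper-quartile factors gave −0.0038 for *Ppp1cb* and −0.0080 for *Proser3*. *Tagln* was 0.0657 on both strands and 0.12 with naming style, where *Eln* was −0.0182. With sex, *Fhl2* was 0.0363, *Ckm* 0.105 and *Pdgfb* 0.0251. Without replicates 7 and 11, *Ppp1cb* was −0.0177 and *Cdh1* 1.47. Without the 5 hearts, *Myocd* was 0.0301, *Rgs5* 0.16, *Fhl2* 0.0331, *Upk3b* −0.13, *Hbb-bs* 0.43, *Ckm* 0.17, *Cdh1* 2.14, *Pdgfb* 0.0557 and *Nthl1* −0.0091. Without *Pde2A*-/- replicates B and D, *Tagln* was 0.091, *Fhl2* 0.0405, *Eln* −0.118, *Cdh5* −0.0209 and *Pdgfb* 0.0992. Without the 6 hearts, *Mylk* was 0.00946, *Myocd* 0.0374, *Rgs5* 0.0485, *Fhl2* 0.0602, *Cdh5* −0.062, *Upk3b* −0.0804, *Hbb-bs* 0.33, *Ckm* 0.15, *Cdh1* 2.405 and *Pdgfb* 0.148. With 1 heart left out the ranges were −0.107 to 0.0743 for *Tagln*, −0.0994 to 0.0386 for *Fhl2*, −0.0524 to 0.0372 for *Cdh5*, −0.136 to 0.0634 for *Ckm*, −0.077 to 0.264 for *Eln*, −0.0708 to 0.231 for *Upk3b*, −0.0272 to 0.0386 for *Ppp1cb*, −0.179 to 0.079 for *Pdgfb*, −0.00462 to 0.14 for *Nthl1* and −0.0551 to 0.0507 for *Proser3*. The cause was not tested. At 63 to 202 counts a heart, *Lmod1* has the largest counting error of the 10 genes.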

Other observations

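Replicate labels are letters in some hearts and numbers in others, and what this marks is not given in the labels. Within letters (3 *Pde2A*-/- and 2 *Pde2A*+/+ hearts) and within numbers (2 and 4 hearts), the log2 ratio of mean CPM was −0.31 and −0.31 for *Cnn1*, −0.30 and −0.25 for *Acta2* and −0.19 and −0.18 for *Smtn*. *Myocd* had −0.33 within letters and −0.0057 within numbers, and *Rgs5* −0.28 and −0.57. *Tagln* had 0.14 and 0.11, opposite in sign to its log2 fold change of −0.01 over all hearts. These ratios were not tested.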
